A study of Rattus norvegicus with 14 samples.

Results

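Bile acid synthesis and transport in rat liver are described here through 10 genes: Cyp7a1, Cyp8b1, Cyp27a1, Baat, Abcb4, Abcb11, Abcc2, Slc10a1, Slco1a1 and Slco1a4. Every probe set of the array whose platform annotation names a gene of this list was taken, which gave 11 probe sets for 9 genes out of 8740 probe sets and 4736 singly annotated genes on the array. The annotation used here assigns no probe set to Cyp8b1, the sterol 12-alpha-hydroxylase, so its expression was not analysed here and it enters only through its promoter. Cyp7a1 and Cyp27a1 had 2 probe sets each and the other genes 1. The dimmer Cyp7a1 probe set gave deposited intensities of only 1.1 to 8 and lay under the filter on dim probe sets, so 10 of the 11 were tested.

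The RNA came from livers of male rats aged 74 days that had spent 53 days on a diet either sufficient or deficient in vitamin A, and was hybridised to single-channel Affymetrix rat arrays. Of the 14 arrays, 7 belonged to each diet: 4 (numbered 1 to 4) were made from roughly 10 µg of total RNA and 3 (numbered 1, 2 and 4) from roughly 2 µg. The average over the arrays that share a diet and a number is called a rat below (n = 4 per diet), although the labels do not state which arrays came from the same liver. Rat 3 of each diet rests on a single array. The sources used here give neither the strain nor the composition of the diets. Because separate animals are not stated, p-values describe only the spread among these 8 values, which may in part be technical. A level is log2 of the scaled intensity plus 16, and a difference is the deficient minus the sufficient mean on that scale, with its standard error (SE).

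Hepatocytes make bile acids from cholesterol and release them into the bile canaliculus together with phospholipid. In the classical route Cyp7a1 sets the pace and Cyp8b1 fixes the ratio of cholic acid to other bile acids, Cyp27a1 oxidises the side chain, and Baat joins the product to taurine or glycine. Abcb11 exports bile salts, Abcb4 flips phosphatidylcholine to the canalicular leaflet, and Abcc2 exports conjugated organic anions. Slc10a1 and the Slco1a carriers take bile salts and other anions back up from portal blood. The nuclear receptor Nr1h4, which binds bile acids, works as a partner of the retinoid X receptors on target genes of this pathway, which ties the pathway to retinoid signalling.

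RefSeq promoters on the GRCr8 build, each of 250 bases before and 50 after the start of transcription, were at hand for 8 of the 10 genes, all but Cyp7a1 and Abcb11. Shown are Abcb4, the only member whose level passed the diet test, Abcc2 and Slc10a1, which carry the hexamer AGGTCA read by nuclear receptors, and the neighbouring Slco1a1 and Slco1a4. Letters are in lower case and AGGTCA, on either strand, is in capitals.
Abcb4, chr4:26164096-26164395, minus strand: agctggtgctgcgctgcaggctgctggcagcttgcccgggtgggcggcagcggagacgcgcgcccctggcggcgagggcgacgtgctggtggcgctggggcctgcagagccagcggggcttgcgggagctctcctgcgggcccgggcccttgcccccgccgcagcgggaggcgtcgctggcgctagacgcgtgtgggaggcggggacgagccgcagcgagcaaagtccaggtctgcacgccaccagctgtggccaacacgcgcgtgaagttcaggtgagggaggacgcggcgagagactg
Abcc2, chr1:252613625-252613924, plus strand: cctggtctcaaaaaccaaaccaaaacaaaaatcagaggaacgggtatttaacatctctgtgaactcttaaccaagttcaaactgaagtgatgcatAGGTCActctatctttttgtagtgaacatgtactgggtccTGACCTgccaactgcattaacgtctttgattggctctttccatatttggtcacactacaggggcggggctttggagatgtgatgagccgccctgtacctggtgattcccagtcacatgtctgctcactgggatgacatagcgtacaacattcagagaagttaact
Slc10a1, chr6:106357895-106358194, minus strand: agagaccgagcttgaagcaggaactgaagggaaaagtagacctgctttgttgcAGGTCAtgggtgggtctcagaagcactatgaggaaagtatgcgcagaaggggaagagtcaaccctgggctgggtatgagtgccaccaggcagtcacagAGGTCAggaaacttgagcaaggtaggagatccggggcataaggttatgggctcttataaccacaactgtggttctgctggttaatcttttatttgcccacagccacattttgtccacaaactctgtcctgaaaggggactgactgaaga
Slco1a1, chr4:176681943-176682242, minus strand: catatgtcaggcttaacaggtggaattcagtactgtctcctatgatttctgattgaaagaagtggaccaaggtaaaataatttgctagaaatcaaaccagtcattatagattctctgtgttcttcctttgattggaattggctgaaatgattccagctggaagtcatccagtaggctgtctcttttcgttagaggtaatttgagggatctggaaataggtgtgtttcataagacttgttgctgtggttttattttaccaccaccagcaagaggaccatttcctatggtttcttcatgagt
Slco1a4, chr4:176495797-176496096, minus strand: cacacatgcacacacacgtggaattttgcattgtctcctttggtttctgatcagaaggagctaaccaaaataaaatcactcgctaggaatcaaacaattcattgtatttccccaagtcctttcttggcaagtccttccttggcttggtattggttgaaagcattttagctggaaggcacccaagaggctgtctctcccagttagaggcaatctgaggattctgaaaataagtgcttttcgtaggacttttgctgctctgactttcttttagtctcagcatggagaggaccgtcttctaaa

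The hexamer AGGTCA, searched on both strands, stood 2 times each in the Cyp27a1, Abcc2 and Slc10a1 windows and was not found in the Abcb4, Baat, Cyp8b1, Slco1a1 or Slco1a4 windows. Of all 33469 promoters of that length in the table, 16.2% held it. Direct repeats of the hexamer spaced by 1, 4 or 5 bases, inverted repeats spaced by 1 base, and the D box TTATGTAA, the site of Dbp-like factors, were found in none of the 8 windows, which do not include that of Cyp7a1. The D box was present in 0.893% of all promoters and each of the repeats in fewer. The Slco1a1 and Slco1a4 windows shared 206 of 300 bases (68.7%) in a global alignment. Every other pair of members lay between 44.3% and 54.7%. These figures concern promoters, and the likeness of the transcripts or probes was not compared. Slco1a1 and Slco1a4 belong to one gene family, and whether their probe sets also bind transcripts of relatives was not tested.

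Abcb4 rose in vitamin A-deficient livers, and the 9 other tested probe sets did not pass. Over all 5244 probe sets tested, 90 passed (1.72%), with 39 (0.744%) increased and 51 (0.973%) decreased by deficiency, and 1 of 10 member probe sets passed (limma, Benjamini-Hochberg adjusted p under 0.05). At an unadjusted p under 0.05 stood 2 of the 10, Abcb4 and Baat, against 14.5% of all probe sets. The diets did not overlap for 1 of the 10, Abcb4, against 8.91% of all (5.84% with deficient rats higher and 3.07% lower). Of the 10 member probe sets 7 differences were positive and 3 negative, with a median of 0.12. All tested probe sets had a median of 0.04 and 58.4% were positive. Taken as 9 genes with the brightest probe set each, 6 differences were positive and 3 negative, with a median of 0.17. The counts over the members are thus small and, apart from Abcb4, near what all probe sets showed.

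**Figure D1:**
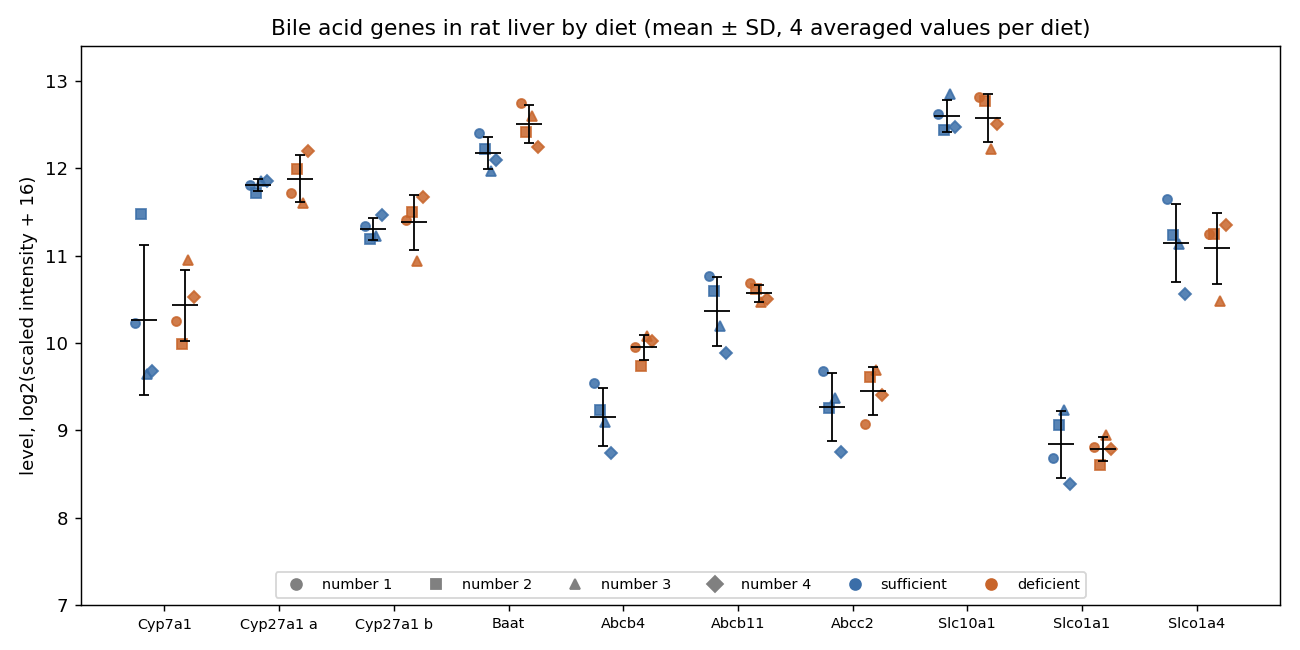
Levels of the 10 tested probe sets, as log2 of the scaled intensity plus 16, for 4 rats per diet (symbols mark the rat's number). Bars give the mean ± SD. The 4 deficient Abcb4 values lie above the 4 sufficient ones, whereas the diets overlap for the other 9 probe sets. Cyp27a1 a is M38566mRNA_s_at and Cyp27a1 b is Y07534cds_s_at.

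Among the enzymes of synthesis, Cyp7a1, the rate-limiting cholesterol 7-alpha-hydroxylase, varied most from rat to rat. Its level was 10.23, 11.48, 9.64 and 9.68 in sufficient rats 1 to 4 and 10.25, 9.99, 10.95 and 10.53 in deficient rats 1 to 4. Sufficient rat 2 stood above every other rat of either diet, and its arrays, with deposited intensities of 5292.9 and 6006.5, were the brightest of the 14. The sufficient rats spanned 3.58-fold and the deficient rats 1.94-fold. The means were 10.43 ± 0.41 (SD, n = 4) in deficient and 10.26 ± 0.86 in sufficient livers, a difference of 0.17 (SE 0.36, limma adjusted p = 0.905), and the 95% interval ran from a 0.647-fold to a 1.95-fold level. Without sufficient rat 2 the difference was 0.58 (SE 0.23, limma adjusted p = 0.326).

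The clock gene Dbp, whose product binds the D box and is named in textbooks as a regulator of Cyp7a1, is given beside it because it varied over a wide range in the same livers. Its level was 4.60, 9.28, 7.59 and 6.49 in sufficient rats 1 to 4 and 9.34, 9.09, 9.33 and 9.63 in deficient rats 1 to 4. The sufficient rat with the highest Dbp level was also the one with the highest Cyp7a1 level, whereas sufficient rat 1, with the lowest Dbp level of all, had the next highest Cyp7a1 level of its diet. Dbp itself differed by 2.36 (SE 0.74) without passing (limma adjusted p = 0.160), and its other probe set by 1.91 (SE 0.45, limma adjusted p = 0.0626). With Dbp as a covariate the Cyp7a1 difference was -0.42 (SE 0.46, limma adjusted p = 0.886), and the part of time of day in the result was not tested. The SD of Dbp was 0.22 in deficient and 1.97 in sufficient rats, so its slope rests mostly on the sufficient rats. Dbp and diet therefore cannot be fully told apart in any fit below that has Dbp as a covariate. Of 7 tested clock genes, 0 passed in limma, with 6 differences positive and 1 negative. Of all tested probe sets 1.72% passed and 58.4% had a positive difference. Among them were the clock repressors Nr1d1 (0.86, SE 0.27, limma adjusted p = 0.163) and Nr1d2 (0.75, SE 0.28, limma adjusted p = 0.246). The other Nr1d1 probe set gave 1.52 (SE 0.38, limma adjusted p = 0.0821). Per2 (0.03, SE 0.29), Hlf (0.02, SE 0.31) and Bhlhe40 (-0.0054, SE 0.15) differed by less than their SE. Bmal1, also a clock gene, was too dim to be tested, at 5.36 in deficient and 6.52 in sufficient rats. Its other probe set read 4.94 against 6.44.

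**Figure D2:**
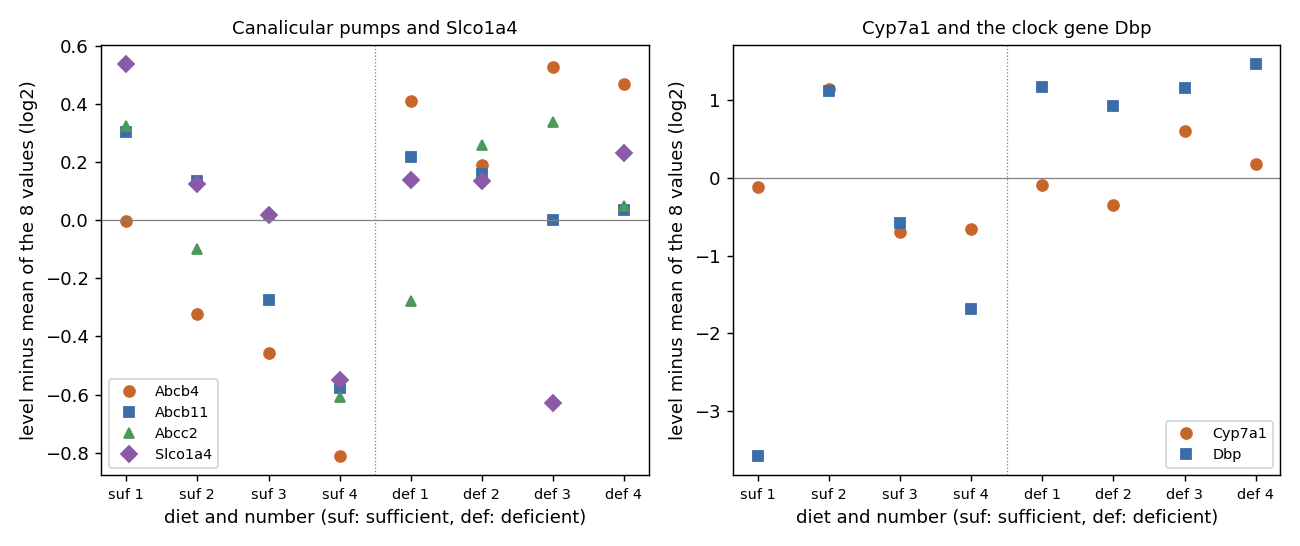
Each rat's level minus the mean of the 8 rats (log2). Left, Abcb4, Abcb11, Abcc2 and Slco1a4, all lowest among sufficient rats in rat 4. Right, Cyp7a1 and Dbp, where sufficient rat 2 has the highest Cyp7a1 level and sufficient rat 1 the lowest Dbp level. Numbers carry no order and do not link rats across diets.

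Cyp27a1, the mitochondrial sterol 27-hydroxylase that starts the alternative route, was read by 2 probe sets that gave nearly equal differences. With M38566mRNA_s_at the level was 11.81, 11.72, 11.85 and 11.86 in sufficient rats and 11.71, 11.99, 11.61 and 12.20 in deficient rats, a difference of 0.07 (SE 0.13, limma adjusted p = 0.893). With Y07534cds_s_at it was 11.34, 11.18, 11.22 and 11.46 against 11.40, 11.50, 10.94 and 11.67, a difference of 0.08 (SE 0.15). In both probe sets deficient rat 3 was the lowest and deficient rat 4 the highest of the 8, so the deficient rats enclosed the sufficient ones. The SD of the sufficient rats was 0.239 times that of the deficient rats with the first probe set and 0.403 times with the second. The 95% intervals of the fold ran from 0.855 to 1.29 and from 0.836 to 1.33.

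Baat, the amino acid N-acyltransferase that conjugates bile acids, read 12.40, 12.22, 11.97 and 12.10 in sufficient rats and 12.75, 12.41, 12.60 and 12.25 in deficient rats. All 4 deficient rats lay above the sufficient mean, and the diets overlapped between 12.25 and 12.40. The means were 12.50 ± 0.22 and 12.17 ± 0.18 (SD, n = 4), a difference of 0.33 (SE 0.13) or 1.26-fold. The interval for this probe set alone, 1.03-fold to 1.54-fold, did not include equal levels, but the difference did not pass over all probe sets (limma adjusted p = 0.282).

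At the canalicular membrane Abcb4, the phosphatidylcholine floppase, read 9.54, 9.23, 9.09 and 8.74 in sufficient rats 1 to 4 and 9.96, 9.74, 10.08 and 10.02 in deficient rats 1 to 4. Each deficient rat lay above every sufficient rat, with 0.19 between the nearest values. The same held array by array: the 7 deficient arrays had deposited intensities of 1643.1 to 2101.5 and the 7 sufficient arrays 783.8 to 1576.9. The mean was 9.95 ± 0.15 against 9.15 ± 0.33 (SD, n = 4), a difference of 0.80 (SE 0.17, 95% interval 0.43 to 1.16, limma adjusted p = 0.0385), which is 1.74-fold with an interval of 1.35-fold to 2.24-fold. The 10 µg arrays alone gave 0.80 and the 2 µg arrays alone 0.74, and neither passed. The 2 µg arrays repeat numbers of the 10 µg arrays, so as counted here they are not a separate set of rats.

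The Abcb4 adjusted p lay close to the threshold. It ranged from 0.00385 to 0.214 over 13 alternative fits and rose over 0.05 in 7 of them, and in 6 of the 8 fits without a rat, at up to 0.126, while the difference stayed between 0.66 and 0.93. The call held without sufficient rat 1 (0.93, limma adjusted p = 0.0172) or deficient rat 2 (0.87, limma adjusted p = 0.0485) and was lost without each of the other 6. With Dbp as a covariate the difference was 0.90 (SE 0.24, limma adjusted p = 0.209), and after scaling to equal medians it was 0.73 (limma adjusted p = 0.0644).

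Abcb11, the bile salt export pump, and Abcc2, the export pump for conjugated bilirubin and other anions, did not pass. Abcb11 read 10.77, 10.60, 10.19 and 9.89 in sufficient rats and 10.68, 10.62, 10.46 and 10.50 in deficient rats. The deficient rats lay within the range of the sufficient ones, and their SD was 0.10 against 0.40. The difference was 0.21 (SE 0.18, limma adjusted p = 0.683), and the interval ran from 0.878-fold to 1.51-fold. Abcc2 read 9.68, 9.26, 9.37 and 8.75 in sufficient rats and 9.08, 9.61, 9.69 and 9.40 in deficient rats, with a difference of 0.18 (SE 0.20, limma adjusted p = 0.777) and an interval of 0.834-fold to 1.54-fold. Without sufficient rat 4 the difference was 0.0457 for Abcb11 and 0.0104 for Abcc2. Sufficient rat 4 was the lowest and sufficient rat 1 the highest of its diet for Abcb4, Abcb11 and Abcc2 alike, an observation on 4 rats without a test. A rise of Abcb11 or Abcc2 as large as the 1.74-fold measured for Abcb4 lay outside their intervals. The Abcb4 interval, from 1.35-fold to 2.24-fold, overlapped both, and the genes were not tested against each other.

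**Figure D3:**
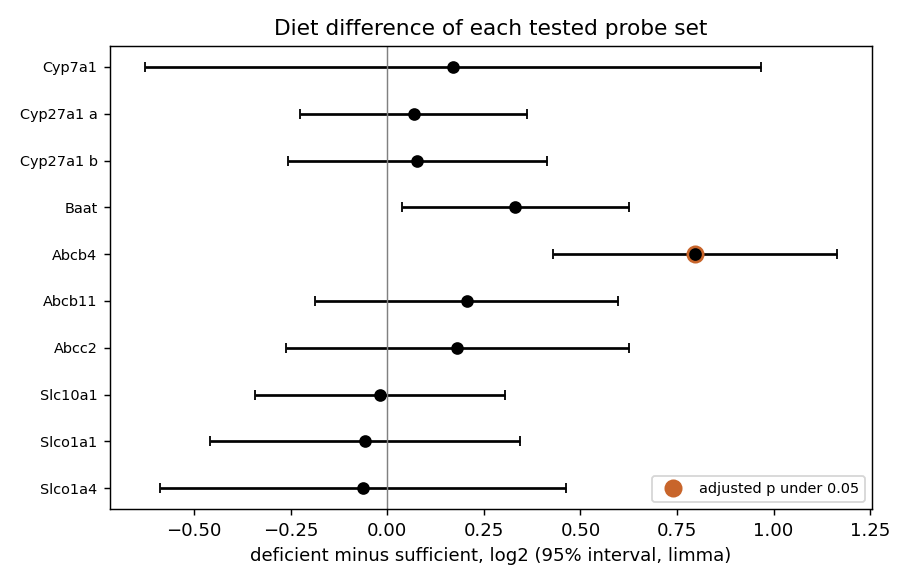
Deficient minus sufficient difference of each tested probe set on the log2 scale, with its 95% interval from limma, not adjusted for the number of probe sets. Abcb4, at 0.80, is the one that passed an adjusted p of 0.05, and the Cyp7a1 interval is the widest, from -0.63 to 0.97. Cyp27a1 a is M38566mRNA_s_at and Cyp27a1 b is Y07534cds_s_at.

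The 3 sinusoidal uptake carriers had small differences with a negative sign, none of which passed. Slc10a1, the sodium-taurocholate cotransporter, read 12.62, 12.44, 12.85 and 12.47 in sufficient rats and 12.82, 12.77, 12.22 and 12.50 in deficient rats. Its difference was -0.02 (SE 0.15, limma adjusted p = 0.978), with an interval of 0.789-fold to 1.24-fold. Slco1a1, a sodium-independent organic anion carrier, read 8.69, 9.06, 9.23 and 8.38 against 8.81, 8.60, 8.94 and 8.78, a difference of -0.06 (SE 0.18, limma adjusted p = 0.938). The deficient rats lay within the range of the sufficient ones. Slco1a4, a carrier of bile salts and cardiac glycosides, read 11.65, 11.24, 11.13 and 10.56 against 11.25, 11.25, 10.48 and 11.34, a difference of -0.06 (SE 0.24, limma adjusted p = 0.952).

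For Slco1a4, deficient rat 3 stood at 10.48 while the other 3 deficient rats lay between 11.25 and 11.34. Without that rat the difference was 0.14 (SE 0.21, limma adjusted p = 0.838). The same rat had the lowest Slc10a1 and Cyp27a1 levels of the 8 and, within its diet, the highest Abcb4, Abcc2, Slco1a1 and Cyp7a1 levels. It was measured on a single array of 10 µg.

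No member passed the comparison of the RNA amounts. For arrays of equal diet and number, the median size of the difference between 2 µg and 10 µg over 6 pairs was 0.06 for Slco1a4, 0.10 for Abcb4 and 0.30 for Slco1a1, and the largest in any pair was 0.54, for Cyp7a1. In the fit that took all arrays, paired or not, as separate samples, the shift of the 10 probe sets lay between -0.04 and 0.20. In that fit 0 of them passed in limma or had an unadjusted p under 0.05. Of all 5244 probe sets, 0 (0%) passed and 347 (6.62%) had an unadjusted p under 0.05, and with diet and number as a block 2 (0.0381%) passed, 1 higher (0.0191%) and 1 lower (0.0191%) at 2 µg, neither of them a member. In that blocked fit Cyp7a1 was 0.19 (SE 0.08) higher at 2 µg, without passing (limma unadjusted p = 0.0457, adjusted p = 0.412), and was higher at 2 µg in 5 of 6 pairs. The blocked fit gave an unadjusted p under 0.05 for 632 (12.1%) of all probe sets. The diet difference of Cyp7a1 was 0.27 in the 10 µg arrays and -0.34 in the 2 µg arrays, which lack rat 3. The test of that change of sign gave -0.61 (SE 0.60) and did not pass. It took paired arrays as separate samples and cannot tell the RNA amount from the lack of rat 3 at 2 µg. A fit that let paired arrays vary together gave -0.48 (SE 0.43), also without passing. The change within the 6 pairs alone was not tested. In limma, with arrays as separate samples, 0 of the 10 members passed the test of diet by amount or had an unadjusted p under 0.05 in it. Of all 5244 the counts were 0 and 96 (1.83%). On simulated arrays this test recovered 3.1% of probe sets changed by 0.5, so changes of that size can be missed.

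**Figure D4:**
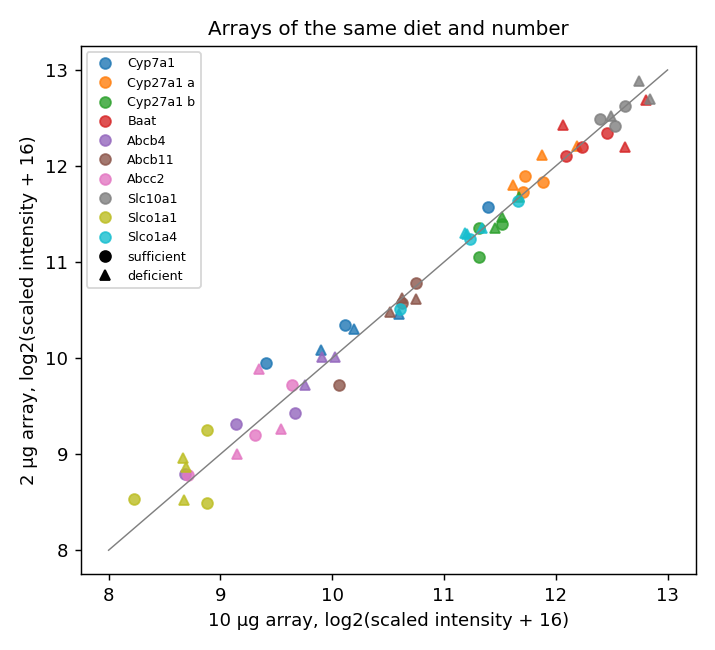
Level on the 2 µg array against level on the 10 µg array of the same diet and number, for 6 pairs and 10 probe sets, both axes as log2 of the scaled intensity plus 16; the line marks equal levels. Points lie within 0.54 of the line. Circles are sufficient and triangles deficient. Cyp27a1 a is M38566mRNA_s_at and Cyp27a1 b is Y07534cds_s_at.

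Other genes of bile acid biology, 112 in 4 lists, were represented by 73 genes, of which 64 were bright enough to be tested. Of these 1 rose, 1 fell and 62 did not pass in limma. Over all 5244 tested probe sets 0.744% rose and 0.973% fell, and the diets did not overlap for 8.91%. Among 14 tested genes of synthesis 0 passed, with a median of 0.04. The 2 with the smallest p were Slc27a2, a peroxisomal very-long-chain acyl-CoA synthetase (0.38, SE 0.08, limma adjusted p = 0.0514), and Acox2, the branched-chain oxidase that shortens the bile acid side chain (0.65, SE 0.18, limma adjusted p = 0.110). With Dbp as a covariate the Acox2 difference was 0.27 (SE 0.20, limma adjusted p = 0.786). All 4 deficient rats exceeded all 4 sufficient rats for Slc27a2, at 13.94 to 14.15 against 13.58 to 13.71.

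Of 15 tested genes of transport and bile formation 1 fell and 14 did not pass, with a median of 0.08. Pctp, the cytosolic transfer protein for phosphatidylcholine, the lipid that Abcb4 moves, fell 1.66-fold. It read 8.73, 8.34, 8.42 and 8.02 in sufficient rats and 7.65, 7.60, 7.56 and 7.78 in deficient rats, without overlap (difference -0.73, SE 0.16, limma adjusted p = 0.0442). The Pctp call was kept only without sufficient rat 4 among the 8 fits that left out a rat and was lost in the other 7, at an adjusted p of up to 0.115. Ephx1, the microsomal epoxide hydrolase, was next at -0.51 (SE 0.11, limma adjusted p = 0.0514). Abcb1b, which lies next to Abcb4 in the RefSeq gene order of GRCr8 and encodes a related pump, was too dim to be tested. It read 4.26 ± 0.17 in sufficient and 4.96 ± 0.25 in deficient livers. The diets did not overlap, at 4.02 to 4.39 against 4.66 to 5.25, near the level of 4 that an intensity of 0 gives. Its neighbour Abcb1a differed by 0.18 (SE 0.32, limma adjusted p = 0.880). Whether transcripts of these relatives bind to the Abcb4 probe set was not tested.

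Of 24 tested regulators 0 passed in limma, with a median of 0.08. Nr1h4, the bile acid receptor, read 8.51, 8.86, 8.83 and 8.91 in sufficient rats and 8.33, 8.19, 8.61 and 8.17 in deficient rats, overlapping in 1 deficient rat (difference -0.45, SE 0.14, limma adjusted p = 0.165). Nr0b2, the small partner that represses Cyp7a1 transcription, differed by 0.26 (SE 0.45, limma adjusted p = 0.873) and varied between 8.53 and 10.66 over the 8 rats. Its other 2 probe sets gave 0.22 and 0.23. Nr1h3, an oxysterol receptor, differed by 0.10 (SE 0.15, limma adjusted p = 0.849). Of 11 tested genes of sulfation and detoxification, the bile acid sulfotransferase Sult2a6 rose 2.40-fold and 10 did not pass, with a median of 0.22. Its level was 11.10, 10.96, 11.19 and 11.11 in sufficient rats and 12.12, 12.61, 12.35 and 12.33 in deficient rats (difference 1.26, SE 0.12, limma adjusted p = 0.000202). Its other 2 probe sets passed as well, at 1.20 and 1.18. Sult2a2 was next at 0.92 (SE 0.22, limma adjusted p = 0.0653), while its other 2 probe sets gave 0.77 and -0.33. Sult2a1 stood at 0.83 (SE 0.21, limma adjusted p = 0.0876), and its other tested probe sets gave 0.77 and 0.61. The diets did not overlap for the brightest probe sets of Sult2a1 and Sult2a2 either. Probe sets of Sult2a genes can share targets.

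Marker genes of other liver cells were set beside these results. For comparison, 1.72% of all tested probe sets passed, 58.4% had a positive difference and 8.91% did not overlap between diets. In bulk RNA, fewer cells of a type and less RNA per cell cannot be told apart. The summed level of 10 bile duct markers (log2 of the summed intensity) overlapped, at 9.76 to 10.21 in deficient and 9.81 to 10.09 in sufficient rats. Of its 8 tested genes 0 passed in limma, with 5 differences positive and 3 negative. Without overlap between the diets, Spp1 (0.62, SE 0.18) and Epcam (0.40, SE 0.15) were higher in deficient rats. Aqp1 was lower in them, also without overlap (-1.04, SE 0.24, limma adjusted p = 0.0563). The sum of 9 hepatocyte markers overlapped too, at 18.07 to 18.25 against 17.77 to 18.17. All 9 hepatocyte markers had a positive difference, with a median of 0.15, and 0 passed in limma. The sum of 9 macrophage markers did not overlap, at 13.22 to 13.63 against 12.90 to 13.04. Of its 8 tested genes, all 8 with a positive difference, 1 passed, Lgals3 (0.77, SE 0.17, limma adjusted p = 0.0492). Ctss, the brightest of them, did not overlap between diets either, without passing (0.65, SE 0.16, limma adjusted p = 0.0706). Csf1r was too dim to be tested. The sum of 6 erythroid markers was 11.96 to 12.73 against 13.64 to 13.96, and 4 of 6 fell, Hbb, Hbb-b1, Hba-a3 and Alas2. Of 10 tested stellate and mesenchymal markers Vim rose (0.80, SE 0.16) and 9 did not pass, with 4 differences positive and 6 negative and a median of -0.11. The brightest Col1a1 probe set stood at -0.85 (SE 0.24, limma adjusted p = 0.120). Its other probe sets gave smaller differences of -0.14, -0.07 and -0.28, also without passing. Of 5 tested endothelial markers Lyve1 fell (-1.04, SE 0.16) and 4 did not pass, with 3 differences positive and 2 negative and a median of 0.17. Of 4 tested lymphocyte markers 0 passed in limma. The summed levels of these 3 lists overlapped between diets. Of the intestine and pancreas markers, 3 of 6 were too dim to be tested and 0 of the other 3 passed in limma. Those 3, Pnlip, Ins1 and Ins2, read 7.72, 9.38 and 9.45 in deficient and 7.81, 9.41 and 9.44 in sufficient rats. Ins1 and Ins2 thus lay above Slco1a1 and near Abcc2. Passing the filter does not by itself show that a gene is expressed in liver. All 9 hepatocyte markers were above the filter. Whether these cells had a part in the Abcb4 or Sult2a6 result was not tested.

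The genes whose levels went most closely with each member, after removal of the diet means, were looked up over the 8 rats among 3134 singly annotated genes. This is a description of the best matches of a large search. For Abcb4 they were Polb (Pearson r = 0.984) and Psmd11 (r = 0.929), for Cyp7a1 Chrm1 and F10, for Cyp27a1 Pdap1 and Dnph1, and for Baat Rraga and Vamp5. For Abcb11 they were Kdr and Zfand6, for Abcc2 Decr1 and Itm2b, for Slc10a1 Car2 and Slc14a1, for Slco1a1 Nr4a2 and Dync1i2, and for Slco1a4 Nfib and Qdpr. The lowest r of these 18 was 0.924 and the highest 0.988, and all points share the arrays' scaling.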

How the data were processed

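The authors deposited 1 linear intensity per probe set and array. The labels name an RNeasy kit for the RNA and the standard Affymetrix procedure for the targets; the program that made the intensities is not given here. The deposited arrays already shared a trimmed mean (2% off each end) of 1001.9 to 1002.1 over all 8799 probe sets and had medians of 175.1 to 231.0 without controls, so each had been scaled to one level. The number of arrays limits the precision.

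The 59 control probe sets were left out, arrays were rescaled to 500 by the trimmed mean of the remaining 8740, and log2 of the intensity plus 16 was taken, which understates the change of dim genes. Probe sets under the 40th percentile of the mean (6.196) were left out. The mean shift between RNA amounts was removed, arrays of equal diet and number were averaged, and limma 3.58.1 under R 4.3.3 fitted these 8 values with a trend. P-values are two-sided, with Benjamini-Hochberg adjustment over 5244 probe sets. The amount and interaction tests used 14 arrays. Gene names came from the platform annotation, and 6985 of 7006 singly annotated probe sets matched the GRCr8 RefSeq table by identifier, with 0 symbols changed. The brightest probe set stood for a gene that is not a member.

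Arrays of equal diet and number at the 2 amounts deviated together (r = 0.202 to 0.351 in 6 pairs), so they were treated as pairs, on the basis of the shared number and this check. The members and lists were chosen with earlier results of these data known. Named genes are all members, the list genes and markers that passed, and the 2 list genes with the smallest p where fewer than 2 passed. Also named are Dbp, Nr0b2, Nr1h4 and Nr1h3, and the 2 genes closest in pattern to each member. Abcb1a, Abcb1b, Sult2a1, Nr1d1, Nr1d2, Per2, Hlf, Bhlhe40, Bmal1, Csf1r, Ctss, Col1a1, Spp1, Epcam, Aqp1, Pnlip, Ins1 and Ins2 were picked with their values in view. So were the other probe sets of Dbp, Nr1d1, Bmal1, Nr0b2, Col1a1, Sult2a1, Sult2a2 and Sult2a6. The closing section gives the alternatives. On simulated arrays the diet fit recovered 28.1% of 64 probe sets changed by 0.5, 70.4% of 71 changed by 1 and 96.9% of 65 changed by 2, with 8 false among 139 calls. As a check of RNA quality, the 3'-over-5' difference in log2 signal was 0.06 (GAPDH) and -0.10 (beta-actin), deficient minus sufficient, with p = 0.743 and p = 0.457 in exact permutation tests.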

Additional observations from a re-analysis of the deposited data

Results flagged for a closer look

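Slco1a4 in deficient rat 3, at 10.48, lay far under the other 3 deficient rats, of which the nearest was at 11.25. The gap made up 0.885 of the range of the 4 values, above Dixon's 95% critical value for 4 values. This check was made on 22 groups of 4 values, in which chance gives about 1 such case in 20.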

How the results depend on the processing

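Over 13 alternatives and 8 fits without a rat, Baat, Abcb4, Abcb11 and Abcc2 kept a positive difference and Nr1h4 a negative difference, but without a rat Abcb11 ranged from 0.0457 to 0.34 and Abcc2 from 0.0104 to 0.32, both lowest without sufficient rat 4. The count of probe sets called by diet, 90, was 33 in the 2 µg arrays alone, 250 when all 14 arrays entered with a random block per rat, and 23 with Dbp as a covariate, and 49 to 97 without a rat (58 without sufficient rat 3 and 49 without deficient rat 4). With a common median 17 were higher and 60 lower instead of 39 and 51. The count of members called was 0 with a common median, no filter, no trend, either RNA amount alone, the number as a replicate block across diets, or Dbp as a covariate, and 0 to 1 without a rat. Signs turned in the 2 µg arrays alone for Cyp7a1 (-0.34), Slc10a1 (0.19), Slco1a1 (0.0240), Slco1a4 (0.19) and Nr1h3 (-0.0451). With Dbp as a covariate they turned for Cyp7a1 (-0.42), Slc10a1 (0.0358), Slco1a4 (0.0720) and Nr0b2 (-0.10), and with the random block for Slc10a1 (0.0340). None of these differences had passed, and the cause was not tested. Without a rat the range was -0.0359 to 0.58 for Cyp7a1, -0.0379 to 0.16 and -0.0210 to 0.22 for the Cyp27a1 probe sets, -0.10 to 0.10 for Slc10a1, -0.21 to 0.0735 for Slco1a1, -0.26 to 0.14 for Slco1a4, -0.0304 to 0.68 for Nr0b2 and -0.0336 to 0.19 for Nr1h3. The Pctp call was lost in 6 of the 13 alternatives, and that of Sult2a6 in 0. Slc27a2 passed in 5 of them, Ephx1 in 4 and Acox2 and Dbp in 1 each. The number as a replicate block across diets, where equal numbers did not deviate together (r = -0.08 to 0.07), gave 77 calls and an Abcb4 adjusted p of 0.0673 in limma. For the RNA amount, diet and number as a replicate block gave 2 calls, and the fits without a rat gave 0 to 2. The interaction had 0 calls in every fit. A change of 0.5 was recovered for 28.1% of simulated probe sets, so changes of that size can be missed at this number of arrays.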
